A study of Mus musculus with 8 samples.

Results

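The comparison described here set the mouse mammary tumour line 66cl4 against 67NR, a line of the same origin. In the study both have a low metastatic potential beside 4T1 and 4T1.2, and 66cl4 is commonly used as a lung-metastatic line, while 67NR could still form bone lesions once injected into the circulation. The comparison contrasted RNA-seq read counts of 4 of the 8 libraries of the study, 2 of each line, and 13913 of the 27179 genes in the count table entered the test. The 4T1 and 4T1.2 libraries also entered the gene filter, the scaling and the estimate of the spread between replicates. All 4 lines of the study (66cl4, 67NR, 4T1 and 4T1.2) are isogenic sublines of 1 spontaneous mouse mammary tumour, and were grown as cultures without a treatment in αMEM with 5% FCS. Each line has 2 biological replicates, prepared with a TruSeq kit from 100 ng of RNA. The sample labels spell the first line 66c14, and the spelling 66cl4 of the study is used here. Because each line is 1 subline, its replicates measure the spread between cultures of that subline and not between independent tumours, and a property of 1 clone cannot be told apart from a property of more metastatic cells. Between 37159840 (67NR replicate 1) and 62776834 (67NR replicate 2) reads were counted on genes in the 4 libraries of 66cl4 and 67NR. Log2 counts per 1000000 (CPM) correlated across genes, which are not independent replicates, at 0.997 between the 66cl4 and 0.999 between the 67NR replicates, against 0.967 to 0.969 between libraries of different lines.

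A tumour cell that leaves the primary site has to pass matrix, survive in blood and grow in another organ, and matrix proteins, adhesion receptors, secreted growth factors and the ability to be seen by immune cells are among the properties known to bear on these steps. Cells that have lost epithelial junctions and keratins in favour of vimentin and N-cadherin are called mesenchymal, and the markers of both states were read here first. Most of the mesenchymal markers were present in both lines. Vim, the intermediate filament of mesenchymal cells, was at 3541 and 3014 CPM in the 66cl4 libraries and 1894 and 2002 CPM in the 67NR libraries. Cdh2, which encodes N-cadherin, had 94.2 against 81.9 CPM on average and Zeb1, a repressor of E-cadherin, 62.6 against 64.2 CPM. The mesenchymal cadherin Cdh11 was close to 0 in both lines (0.111 against 0.25 CPM). Cdh1, which encodes E-cadherin, stood at 0.0997 against 0.0759 CPM and Epcam at 0 against 0.0136 CPM. The simple keratin Krt8 was kept at 605 against 496 CPM, whereas its partner Krt18 differed between the lines.

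At an adjusted p under 0.05, 6215 of the 13913 genes tested (44.7%) differed between the lines, 3100 of them higher in 66cl4 (22.3%) and 3115 lower (22.4%) (quasi-likelihood F-test of edgeR, adjusted after Benjamini and Hochberg). A change of more than 2-fold was fitted for 1102 genes that were higher and for 949 that were lower, and one of more than 8-fold for 262 and 209. The median log2 fold change of all genes tested was 0. The count for any group of genes in what follows has to be read against these shares, which are not repeated each time. A count near them sets the group little apart from all genes tested. Without replicate 2 of 67NR the counts fell to 2044 higher and 2096 lower genes, and 1778 higher and 1836 lower genes were called with any single library left out. Fold changes are 66cl4 relative to 67NR throughout, and standard errors are approximate values derived from the F statistic. In RNA from whole cultures, fewer cells with a transcript and less of it per cell cannot be told apart.

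**Figure D1:**
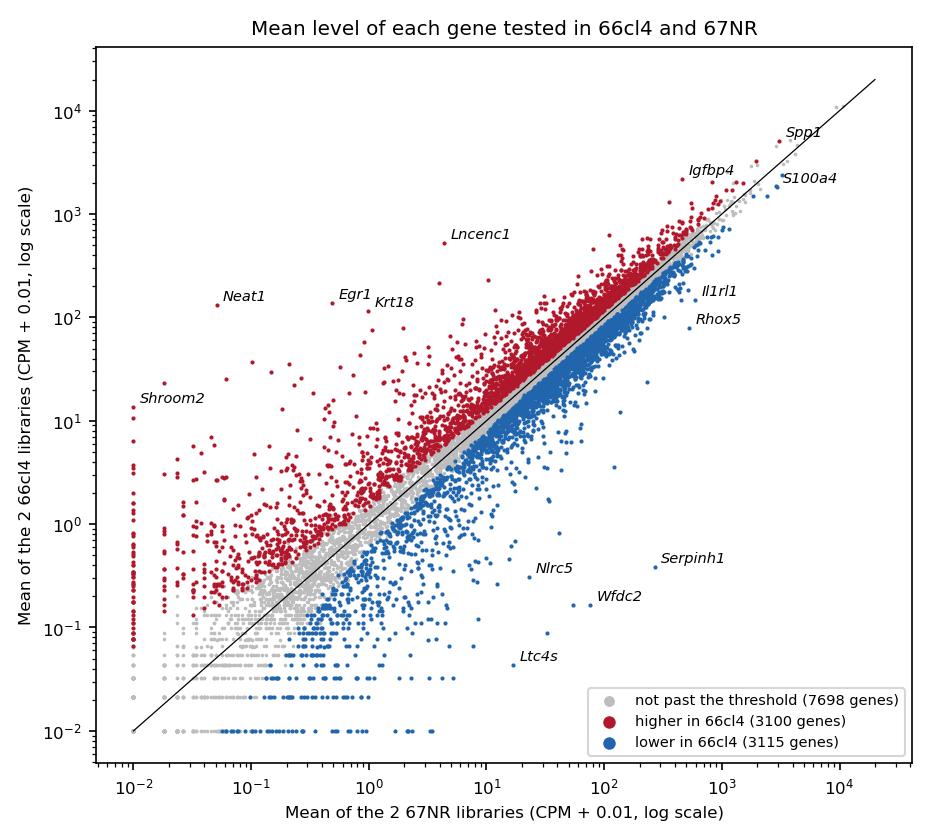
Mean CPM of each of the 13913 genes tested in the 2 67NR libraries (horizontal axis) and the 2 66cl4 libraries (vertical axis), both on log scales after adding 0.01. Red points are the 3100 genes higher and blue points the 3115 genes lower in 66cl4 at an adjusted p under 0.05, and the line marks equal levels. Serpinh1 lies far below the line, and Neat1, Egr1 and Lncenc1 lie far above it.

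The largest differences were close to a switch between the lines. Serpinh1, the collagen chaperone HSP47 of the endoplasmic reticulum, had 0.553 and 0.201 CPM in the 66cl4 libraries and 278 and 258 CPM in the 67NR libraries (log2 fold change -9.46, standard error 0.25, adjusted p 2.2e-08). Every 67NR library was far above every 66cl4 library, and this was the largest fall among genes with at least 10 CPM in the higher line. Wfdc2, a secreted protein with protease inhibitor domains, followed with 0.177 and 0.134 against 71.5 and 80.4 CPM, and Gng2, a G protein gamma subunit, with 0.0442 and 0.112 against 34.5 and 30.3 CPM. A pair of immune regulators was also nearly silent in 66cl4. Aim2, a sensor of cytosolic DNA, was at 0.177 and 0.134 CPM in the 66cl4 libraries and 54.1 and 55.4 CPM in the 67NR libraries (log2 fold change -8.44, standard error 0.19, adjusted p 1.49e-08), and Nlrc5, the transactivator of MHC class I genes, at 0.309 and 0.29 against 23.4 and 22.7 CPM. The other members of the 12 largest falls were Ltc4s (leukotriene C4 synthase), Cpt1c (a brain-type carnitine palmitoyltransferase), the small GTPase Rrad, the carbohydrate kinase Fggy, the autophagy gene Atg9b, the Cdc42 effector Cdc42ep5 and the neuropeptide gene Qrfp, with log2 fold changes from -8.89 to -4.68.

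In the opposite direction, Neat1, a long non-coding RNA that scaffolds nuclear paraspeckles, had 6193 and 5618 counts in 66cl4 and 3 and 0 in 67NR, a ratio of 4299 (95% interval 1471 to 20851). Lncenc1, another long non-coding RNA, was at 529 and 519 CPM in the 66cl4 libraries and 3.85 and 4.88 CPM in the 67NR libraries (log2 fold change 6.89, standard error 0.14, adjusted p 9.93e-09). Egr1, an immediate-early transcription factor, was at 139 and 135 CPM in the 66cl4 libraries and 0.409 and 0.551 CPM in the 67NR libraries (log2 fold change 8.10, standard error 0.28, adjusted p 6.71e-08). Neither pair of libraries overlapped the other for any of these genes. Ppl, which encodes the cornified-envelope protein periplakin, had 29.4 and 29.2 against 0.164 and 0.113 CPM. Mid2, a ubiquitin ligase bound to microtubules, had 37.4 and 36.4 against 0.0546 and 0.13 CPM, and Tns4, a focal adhesion protein of the tensin family, had 23 and 29.3 against 0.3 and 0.211 CPM. Krt18 rose from 0.977 ± 0.223 to 114 ± 1.57 CPM (SD, n = 2; log2 fold change 6.82, standard error 0.23, adjusted p 6.11e-08).

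Some genes were read in only 1 of these lines, with at most 3 counts in both libraries of the other line and at least 5 CPM on average where they were read. There were 9 such genes in 66cl4 and 3 in 67NR. In 66cl4 they included Shroom2, a regulator of the apical actin cytoskeleton, with 630 and 599 counts. No read of it was counted in 67NR, so that its level was at least 209-fold higher against a floor of 3 counts per library. Gabre, a GABA receptor subunit, was likewise at 0 in 67NR and had 309 and 264 counts in 66cl4, at least 97.5-fold higher. Dock11, an exchange factor for Cdc42, had 1295 and 788 counts against 0 and 1. The arrestin-like Arrdc4 had 1051 and 1223 counts against 2 and 3, the growth factor Pdgfc 273 and 255 against 1 and 3, the glucosyltransferase B3glct 303 and 320 against 2 and 1, and Pxdc1 212 and 298 against 1 in each 67NR library. Neat1, given above, is another. Dock11 (chromosome X, 35887271 to 36076570), Gabre (chromosome X, 72256926 to 72274828) and Shroom2 (chromosome X, 152609509 to 152770788, GRCm38) all lie on the X chromosome, in separate regions. Gabre was also at 0 or 1 count in every 4T1 and 4T1.2 library, whereas Shroom2, Neat1, B3glct and Pxdc1 were read there at 610 counts or more per library. In 67NR the genes were Gli1, the transcription factor induced by Hedgehog signalling with 211 and 287 counts against 1 in each 66cl4 library, a ratio of 228 (95% interval 62.8 to 1888), Ltc4s (558 and 1147 against 2 and 1) and Samsn1, an adaptor of lymphoid cells (292 and 446 against 3 and 2). Bounds, intervals and ratios of this kind cover counting error only. In the 4T1 and 4T1.2 libraries Samsn1 had 5344 to 6739 counts, Ltc4s 113 to 238 and Gli1 9 to 24. Pdgfc had 129 to 313 counts there, Arrdc4 99 to 131 and Dock11 0 to 9.

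Ranked by the difference in mean CPM, a measure that favours abundant and long transcripts, the genes higher in 66cl4 included secreted and surface proteins. Spp1, which encodes the secreted matrix cytokine osteopontin, was at 5469 and 4624 CPM in the 66cl4 libraries and 3199.6 and 2958 CPM in the 67NR libraries (log2 fold change 0.71, standard error 0.15, adjusted p 0.0043). Igfbp4, a secreted binding protein of insulin-like growth factors, was at 2116 and 2249 CPM in the 66cl4 libraries and 457 and 461 CPM in the 67NR libraries (log2 fold change 2.25, standard error 0.11, adjusted p 5.08e-07), and Cd24a, a small surface glycoprotein, at 1288 and 1311 against 353 and 352 CPM. In each case both 66cl4 libraries were above both 67NR libraries. The matrix glycoprotein Thbs1, the YAP target genes Ankrd1 and Ccn1, Vim and the non-muscle myosin Myh9 completed the first 8, with log2 fold changes of 1.31, 1.23, 0.65, 0.75 and 0.62. Among the genes lower in 66cl4, S100a4, a calcium-binding protein often used as a mesenchymal marker, was at 1707 and 1905 CPM in the 66cl4 libraries and 3070.0 and 2828 CPM in the 67NR libraries (log2 fold change -0.71, standard error 0.14, adjusted p 0.00261), although 44.8% of its stretches of 75 bases are found in another gene as well. Il1rl1, the receptor of interleukin-33, was at 141 and 151 against 595 and 598 CPM, and the X-linked homeobox gene Rhox5 at 80.3 and 78 against 518 and 538 CPM. Selenof, a selenoprotein of the endoplasmic reticulum, had 449 and 421 against 936 and 924 CPM, and the lysosomal protease Ctsl 728 and 717 against 1101 and 1208 CPM. The desaturase Scd2 and the glycolytic enzymes Ldha and Pkm were the others, with log2 fold changes of -0.65, -0.70 and -0.43. Some of these calls depended on single libraries: an adjusted p under 0.05 was lost for Vim without 66cl4 replicate 1 or either 67NR library, for Myh9 without 66cl4 replicate 2 or either 67NR library and for Ldha and Pkm without any of these 4 libraries.

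**Figure D2:**
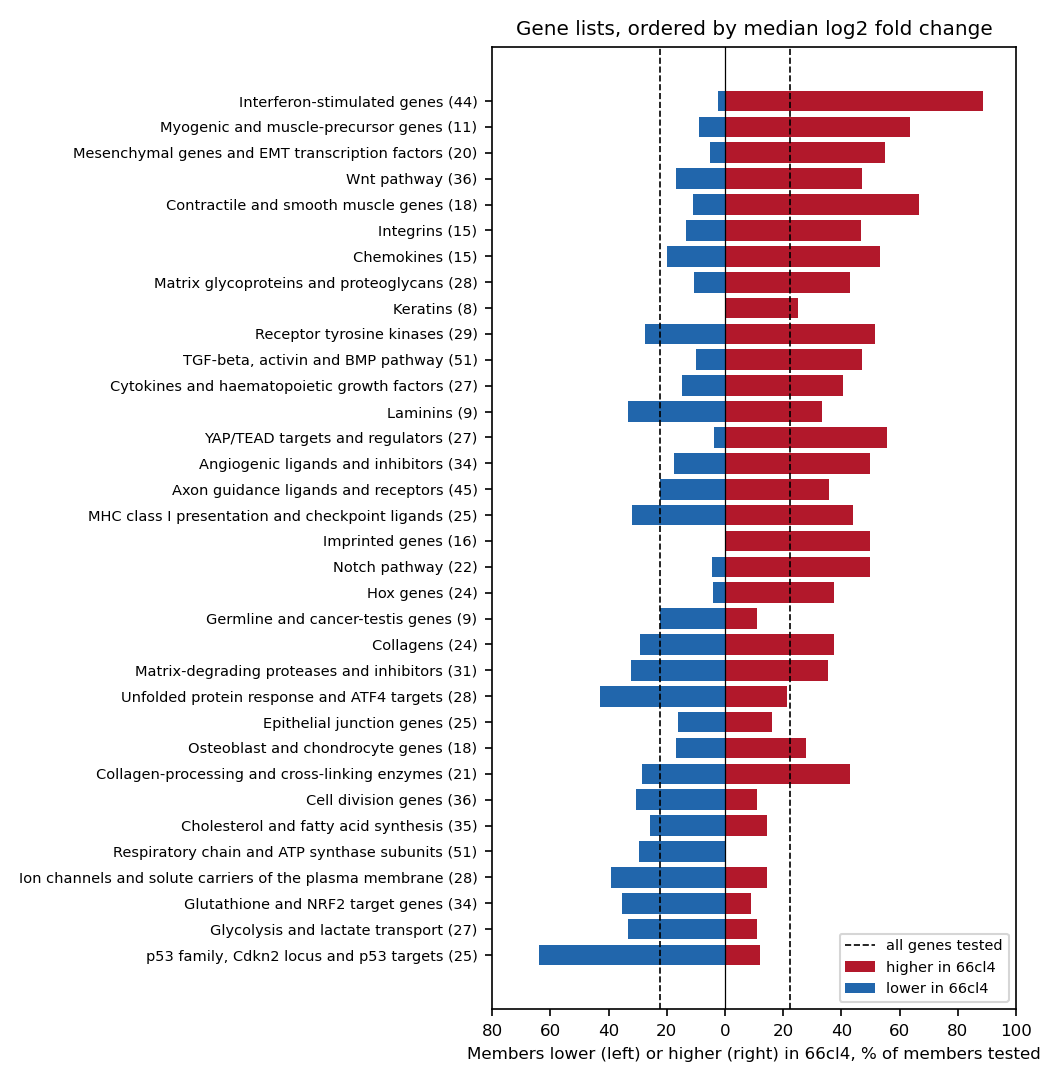
Share of the tested members of each gene list that were higher (red, to the right) or lower (blue, to the left) in 66cl4 at an adjusted p under 0.05, with the number tested in parentheses and the lists ordered by median log2 fold change (lists with at least 8 members tested are drawn, while markers of other cell types and groups chosen after values were seen are not). Dashed lines mark the shares of all genes tested, 22.3% higher and 22.4% lower. Of the lists drawn, interferon-stimulated genes stand at the top and the p53 list at the bottom.

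Interferons are secreted proteins that warn cells of infection. Their receptors activate STAT2, which binds IRF9 within a factor that switches on genes with an interferon-stimulated response element in their promoters, and the products of these genes sense, block or degrade viral nucleic acids and proteins. The list of interferon-stimulated genes had the largest median of the lists drawn in the plot of list shares. Of its 44 members, all tested, 39 (88.6%) were higher in 66cl4, 33 of them by more than 2-fold, and 1 was lower, against 22.3% and 22.4% of all genes. The median log2 fold change of the list was 1.85, against 0 for all genes tested. Summed over the list, the level was between 3485 and 4262 CPM in the 66cl4 libraries and between 1468 and 1483 CPM in the 67NR libraries. In the other lines it ran from 1608 to 2009.8 CPM, so that the 66cl4 libraries were the only ones of the 8 above 2009.8 CPM.

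Short stretches of the promoters of 5 of these genes are printed to show the element: Ifit3, Oas3, Ifit1 and Rsad2, whose folds are among the largest of the members with a match before the start, and Isg15, which has 3 matches. The core GAAANNGAAA, searched on both strands in 250 bases before and 50 bases after the gene start, was found in 14 of the 28 higher members that had a promoter sequence (50%), and in 943 of all 27025 promoters (3.49%). Over the whole list, whatever the direction of change, it was present in 15 of the 33 members with a sequence (45.5%). Among genes higher in 66cl4 outside the list it was present in 93 of 2404 (3.87%). A match describes the letters of the window and does not show binding of a factor. The sequences, from RefSeq on GRCm38.p6, are written 5′ to 3′ on the strand of the gene, and capitals mark every match within the stretch printed (Ifit3 has another outside it), written as GAAANNGAAA or as its reverse complement TTTCNNTTTC, with overlapping matches run together.
Ifit3: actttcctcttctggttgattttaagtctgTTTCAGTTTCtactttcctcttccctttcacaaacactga
Oas3: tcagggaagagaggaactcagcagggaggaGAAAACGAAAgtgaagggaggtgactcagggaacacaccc
Ifit1: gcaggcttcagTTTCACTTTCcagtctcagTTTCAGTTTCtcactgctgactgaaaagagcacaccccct
Rsad2: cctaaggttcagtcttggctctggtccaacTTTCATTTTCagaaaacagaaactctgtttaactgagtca
Isg15: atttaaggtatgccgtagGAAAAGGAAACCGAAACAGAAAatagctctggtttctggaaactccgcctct
These stretches lie at chr19:34583377-34583446 (+ strand) for Ifit3, chr5:120777695-120777764 (- strand) for Oas3, chr19:34640774-34640843 (+ strand) for Ifit1, chr12:26456533-26456602 (- strand) for Rsad2 and chr4:156200845-156200914 (- strand) for Isg15. Their values follow.

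Transcription factors of the response were among the genes that rose. Irf7, the factor that amplifies interferon production, was at 95.2 and 75.9 CPM in the 66cl4 libraries and 6.33 and 6.14 CPM in the 67NR libraries (log2 fold change 3.78, standard error 0.17, adjusted p 2.91e-07). Irf9 was at 111 and 91.7 against 19.4 and 17.4 CPM and Stat2 at 56.7 and 46.2 against 19.2 and 17.4 CPM, with log2 fold changes of 2.46 and 1.49. Irf1 rose less, by 0.82 on the log2 scale. Sensors of viral nucleic acid were higher too. Ifih1, which encodes MDA5, was at 62.5 and 47.9 against 14.8 and 14.9 CPM, and Ddx58, which encodes RIG-I, at 196 and 156 against 65.6 and 59.9 CPM. Their relative Dhx58 (LGP2) rose by 3.28 on the log2 scale and the Z-nucleic acid sensor Zbp1 by 3.21. These 4 sensors were higher in both 66cl4 libraries than in both 67NR libraries.

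The largest fold changes of the list were those of the antiviral effectors Mx2, Oas2 and Ifit3. The dynamin-like GTPase Mx2 was at 14 and 10.3 CPM in the 66cl4 libraries and 0.273 and 0.616 CPM in the 67NR libraries (log2 fold change 4.66, standard error 0.29, adjusted p 2.09e-06). The oligoadenylate synthetase Oas2, which activates RNase L, was at 57.2 and 34.2 against 2.68 and 2.12 CPM, and Oas3, whose promoter is shown above, at 74.3 and 58.6 against 4.86 and 4.94 CPM. Ifit3 had 44.9 and 27.2 against 2.76 and 2.4 CPM and Ifit1, which binds foreign RNA ends, 133 and 79.1 against 16.7 and 16.4 CPM. Isg15, a ubiquitin-like modifier, was at 162 and 114 against 30.8 and 30.5 CPM (log2 fold change 2.17, standard error 0.22, adjusted p 4.34e-05), and Usp18, the protease that removes it, at 44.2 and 27 against 3.14 and 3.19 CPM. Rsad2 (viperin) was at 27.7 and 22.7 against 4.39 and 4.73 CPM. Bst2 (tetherin), which holds budding virus at the membrane, had 267 and 237 against 57.9 and 61 CPM. For each of these effectors both 66cl4 libraries were above both 67NR libraries, and 66cl4 replicate 1 was the higher of the 66cl4 pair. The members that did not pass the threshold were Isg20, Ifitm1, Ifitm2 and Ifit2, with 68.5 against 76.5 CPM for Ifit2. The exception was Oasl1, a translational repressor of Irf7, which fell by 0.89 on the log2 scale (3.52 against 6.49 CPM). Ifit3 and Oas1a have close copies, and 41.1% and 47.6% of their 75-base stretches occur in transcripts of other genes, so that their counts are uncertain. The call of Samd9l was lost without 66cl4 replicate 1 or either 67NR library or either 4T1.2 library, and that of Tap1 without 66cl4 replicate 1 or 67NR replicate 1.

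**Figure D3:**
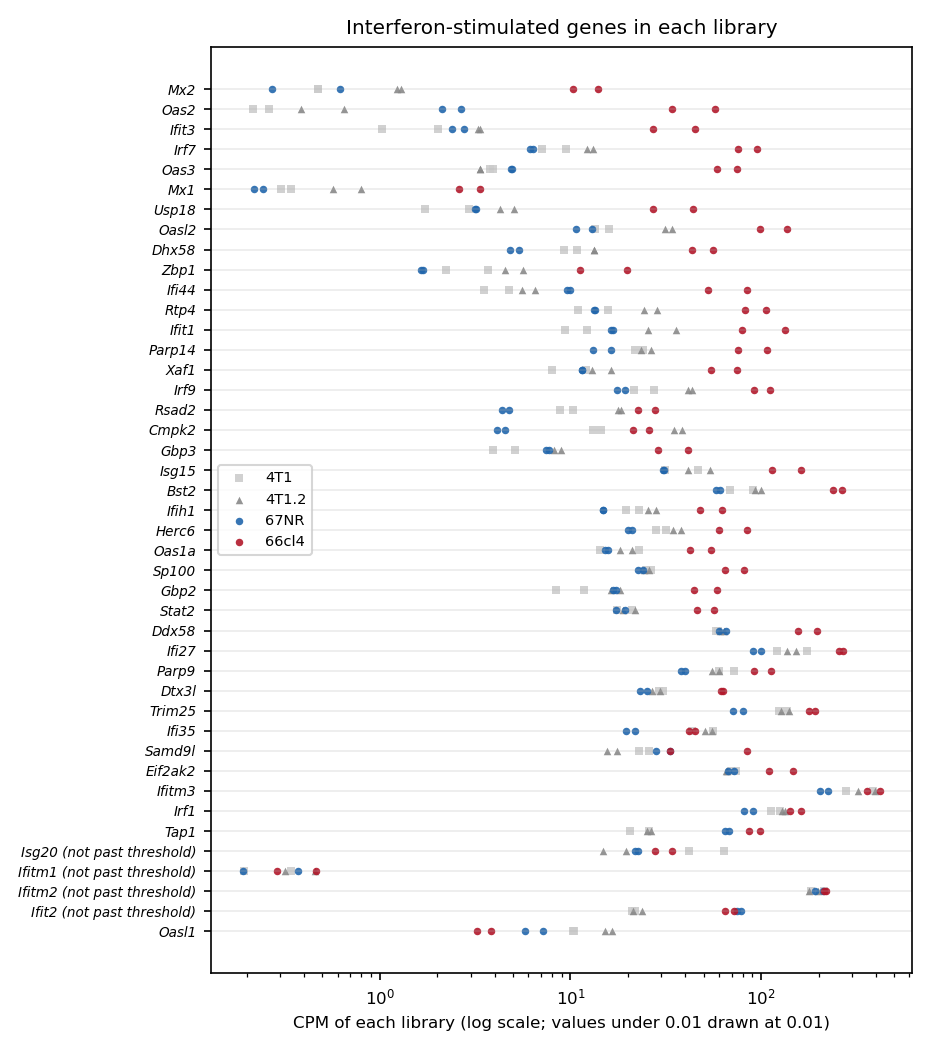
CPM of 43 of the 44 interferon-stimulated genes in each of the 8 libraries on a log scale, ordered by log2 fold change, with 66cl4 in red, 67NR in blue, 4T1 as light squares and 4T1.2 as dark triangles. The 66cl4 points of most genes lie to the right of all others, and Oasl1 at the foot shows the opposite order of the 66cl4 and 67NR points.

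MHC class I molecules present peptides from inside the cell to CD8 T cells. The proteasome cuts the peptides, the TAP transporter moves them into the endoplasmic reticulum, and chaperones load them onto a heavy chain paired with B2m. These steps moved in different directions. Of 25 members tested, 11 were higher and 8 lower (median log2 fold change 0.32). The heavy chain gene H2-D1 was at 217 and 201 CPM in the 66cl4 libraries and 419.6 and 446 CPM in the 67NR libraries (log2 fold change -1.05, standard error 0.12, adjusted p 7.81e-05) and H2-K1 at 147 and 136 against 221 and 243 CPM (log2 fold change -0.71, standard error 0.12, adjusted p 0.00104). B2m stood at 641 and 586 against 874 and 817 CPM, and its call was lost without 66cl4 replicate 2 or either 67NR library. Both heavy chains were lower in both 66cl4 libraries. The lines come from BALB/c mice, whose MHC haplotype differs from that of the reference genome, which can lower the counts of H2 genes in either line. Genes of the loading machinery differed in direction. The transporter subunit Tap2 was at 155 and 153 against 73.7 and 70.9 CPM, the loading chaperone Tapbp at 171 and 181 against 78.8 and 87.5 CPM and the immunoproteasome subunit Psmb10 at 69.7 and 64.9 against 28.7 and 32 CPM. Erap1, which trims the peptides, and the proteasome activator Psme1 rose by 0.83 and 0.70 on the log2 scale. The lectin chaperone Calr was lower, at 340.1 and 302 against 566 and 503 CPM. The other immunoproteasome subunits Psmb8 and Psmb9 did not pass the threshold (81 against 85.3 CPM and 30.9 against 24.4 CPM), nor did Cd274, which encodes PD-L1 (3.36 against 2.85 CPM). The T cell costimulator Cd80 was at 0.733 against 5.81 CPM and Nlrc5 had the largest fall of the list (log2 fold change -6.25). The count of higher members was 6 without 67NR replicate 1 and 7 without 66cl4 replicate 1 for this list.

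p53 is a transcription factor that DNA damage and other stress stabilise, and its targets halt the cell cycle, repair DNA or start apoptosis. The list of p53 family members, the Cdkn2 locus and p53 targets had the lowest median of the lists drawn in the plot of list shares, at -0.73 on the log2 scale. Of 25 members tested, 16 were lower in 66cl4 (64%, against 22.4% of all genes) and 3 higher. The cell cycle inhibitor Cdkn1a (p21) was at 133 and 159.8 CPM in the 66cl4 libraries and 437 and 455 CPM in the 67NR libraries (log2 fold change -1.60, standard error 0.10, adjusted p 2.39e-06). Zmat3, an RNA-binding p53 target, was at 41.8 and 51.9 against 182 and 179 CPM, and lies on chromosome 3, a chromosome on which most genes were lower. Ccng1, a cyclin induced by p53, was at 434 and 372 against 811 and 824 CPM (log2 fold change -1.02, standard error 0.10, adjusted p 4.74e-05). The ubiquitin ligase Mdm2, which p53 induces and which degrades it, was at 206 and 236 against 318 and 328 CPM. Among apoptotic targets, Bax was at 169 and 189.8 against 285 and 346 CPM, the death receptor gene Fas had a log2 fold change of -1.16, its relative Tnfrsf10b one of -0.85 and the exonuclease Aen one of -1.30. In each of these genes both 66cl4 libraries were below both 67NR libraries. Trp53 itself did not pass the threshold (187 and 218 against 233 and 241 CPM), nor did Bbc3, which encodes PUMA (37.3 against 42.5 CPM). Cdkn2a, which encodes the tumour suppressors p16 and p19ARF, was close to 0 in both lines (0.855 against 0.692 CPM). The family member Trp63, a factor of basal epithelium, was higher, at 137 and 137 against 34.6 and 29.9 CPM (log2 fold change 2.09, standard error 0.11, adjusted p 1.09e-06). Outside chromosomes 3 and 8, 15 of 24 members were lower. The count of higher members was 1 without 67NR replicate 1 for this list.

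**Figure D4:**
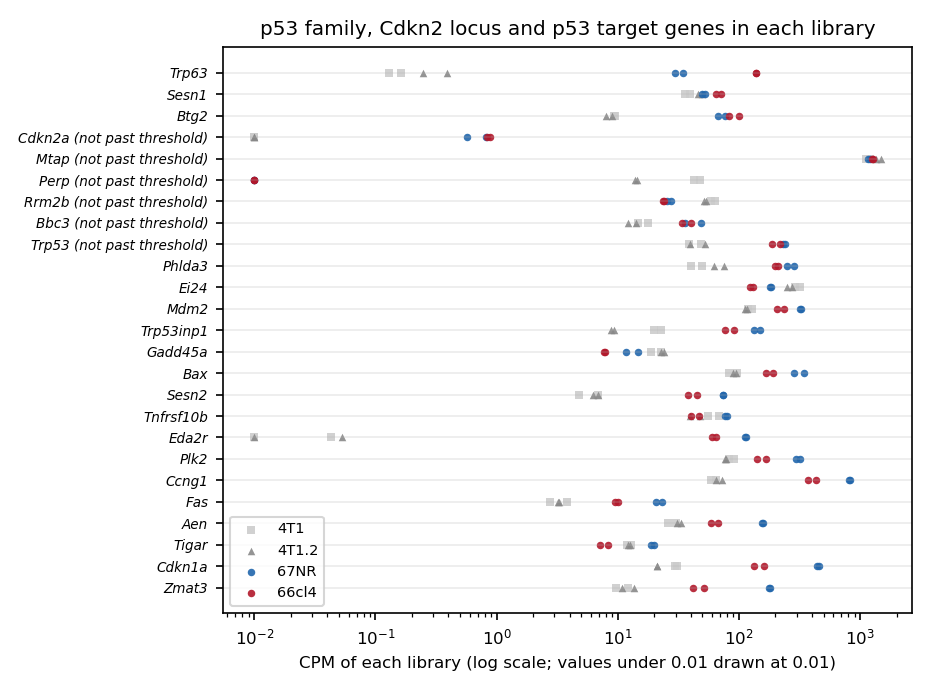
CPM of the 25 tested members of the p53 list in each of the 8 libraries on a log scale, ordered by log2 fold change, with 66cl4 in red, 67NR in blue, 4T1 as light squares and 4T1.2 as dark triangles. For Cdkn1a, Zmat3 and Ccng1 both 66cl4 points lie to the left of both 67NR points, and for Trp63 they lie to the right.

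Among genes of cell division, lower members outnumbered higher ones. Of 36 cell division genes tested, 4 were higher and 11 lower (11.1% and 30.6%, against 22.3% and 22.4% of all genes). The median log2 fold change was -0.10. Outside chromosomes 3 and 8, 4 of 33 members were higher and 9 lower, with a median of -0.04. Of the cyclins of S phase entry, Ccne1 was at 15.9 and 20.3 against 42.6 and 39.1 CPM, Ccne2 at 25 and 17.7 against 55.2 and 53.9 CPM and Ccna2, on chromosome 3, at 172 and 180.3 against 362 and 345 CPM. For all of them both 66cl4 libraries were below both 67NR libraries. The mitotic genes Plk1 (135 against 127 CPM), Aurka (119.9 against 109 CPM) and Ccnb1 (120.3 against 119.7 CPM) did not pass the threshold. The count of higher members was 0 without 67NR replicate 2 and 1 without 67NR replicate 1, and the count of lower members was 4 without 67NR replicate 2, 5 without 67NR replicate 1 and 7 without either 66cl4 library for this list.

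Collagens form the fibres and basement membranes to which cells attach. Their chains are hydroxylated and folded in the endoplasmic reticulum with the help of prolyl and lysyl hydroxylases and Serpinh1, and are cross-linked outside the cell by lysyl oxidases. Of 24 collagen genes tested, 9 were higher and 7 lower in 66cl4 (median log2 fold change 0.10). Among the collagen VI chains, Col6a1 was at 475 and 382 against 202 and 188 CPM and Col6a2 at 151 and 134 against 74.5 and 64.2 CPM, and Col5a2, a fibrillar chain, at 37 and 31.2 against 1.2 and 1.69 CPM (log2 fold change 4.53, standard error 0.23, adjusted p 6.36e-07). Col4a5 of basement membranes was at 156 and 139 against 76.4 and 70.5 CPM. Both 66cl4 libraries were above both 67NR libraries for each. The fibrillar chains of collagen I were low in both lines, with 5.74 against 4.66 CPM for Col1a1. Col18a1, the source of endostatin, was lower at 116 and 106 against 169 and 179.7 CPM. The count of lower members was 3 without 67NR replicate 1 and 4 without either 66cl4 library for this list. The enzymes were as divided. Of 21 genes of collagen processing and cross-linking tested, 9 were higher and 6 lower, and Serpinh1, described above, was the only member with a change of more than 8-fold among those above 10 CPM in either line. Among the lysyl oxidase-like genes, Loxl1 was at 46.4 and 48.4 against 16.6 and 19 CPM and Loxl4 at 373 and 373 against 149 and 133 CPM, and the procollagen proteinase enhancer Pcolce at 899 and 886 against 642 and 619 CPM. Among the hydroxylases, Plod3 was at 105 and 98 against 158 and 161 CPM and P4ha2 at 16.2 and 18.2 against 32.8 and 28.6 CPM, whereas P3h2 was higher, at 8.62 and 9.18 against 2.98 and 2.59 CPM.

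Glycoproteins of the matrix were more often higher. Of 28 matrix glycoprotein and proteoglycan genes tested, 12 were higher and 3 lower in 66cl4 (median log2 fold change 0.49, 42.9% higher). Thbs1, which activates latent TGF-β, was at 2104 and 1966 CPM in the 66cl4 libraries and 832 and 805 CPM in the 67NR libraries (log2 fold change 1.31, standard error 0.12, adjusted p 2.28e-05), and Sparc, a collagen-binding protein, at 479.8 and 452 against 298 and 270.4 CPM. Others were near 0 in 67NR and low in 66cl4. Thbs2 had 130 and 156 counts in 66cl4 and 1 and 2 in 67NR, a ratio of 104 (95% interval 35.3 to 508), and Postn, which encodes periostin, had 151 and 106 counts in 66cl4 and 2 and 3 in 67NR, a ratio of 56.1 (95% interval 23.7 to 174). Fibronectin (Fn1, 1523 and 1183 against 989 and 969.9 CPM) and perlecan (Hspg2, 451 against 316 CPM) did not pass the threshold. Among the receptors of these proteins, 7 of 15 integrins tested were higher and 2 lower. Itgb5, part of a vitronectin receptor, was at 521 and 491 CPM in the 66cl4 libraries and 133 and 140.0 CPM in the 67NR libraries (log2 fold change 1.89, standard error 0.10, adjusted p 8.12e-07). Itga8, whose ligands include nephronectin, was at 85.8 and 64.1 against 1.26 and 0.843 CPM (log2 fold change 6.21, standard error 0.20, adjusted p 6.04e-08), and Itga7, a laminin receptor subunit, at 70.3 and 69.3 against 21.8 and 21.4 CPM. The common subunit Itgb1 did not pass the threshold (913 and 839 against 1051 and 984 CPM). Of 9 laminin chains tested, 3 were higher and 3 lower. Lamb1 was at 602 and 536 against 293 and 291 CPM and Lamb2 at 179.5 and 172 against 53.8 and 56.9 CPM, whereas Lamb3 and Lamc3 were low in both lines (0.166 against 1.05 CPM and 0.733 against 2.08 CPM).

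Proteases that cut matrix showed no common direction. Of 31 proteases and inhibitors tested, 11 were higher and 10 lower (median log2 fold change 0.03). Adamts1, a secreted protease that cleaves proteoglycans and Thbs1, was at 634 and 607 CPM in the 66cl4 libraries and 118 and 100.2 CPM in the 67NR libraries (log2 fold change 2.51, standard error 0.12, adjusted p 3.78e-07). Its relative Adamts5 was at 114 and 99.6 against 47.4 and 47.2 CPM and the metalloprotease Mmp11 at 45.4 and 47.6 against 22.1 and 22.5 CPM. The membrane-bound collagenase Mmp14 was at 90.2 and 82 against 123 and 126 CPM and the gelatinase Mmp2 at 6.76 and 5.27 against 17.1 and 17.1 CPM, lower in both 66cl4 libraries than in both 67NR libraries. Mmp9 and Mmp10 were low in both lines, at 0.344 against 2.28 CPM and 1.2 against 4.39 CPM. The inhibitor Timp2 was at 849 and 890.2 against 645 and 615 CPM. The count of higher members was 5 without either 67NR library, 6 without 66cl4 replicate 1 and 7 without 66cl4 replicate 2 for this list.

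Genes that mark mesenchymal cells, including the transcription factors of epithelial-mesenchymal transition, were often higher in 66cl4. Of 20 such genes tested, 11 were higher and 1 lower (median log2 fold change 0.62). The forkhead factor Foxc1 was at 239 and 273 CPM in the 66cl4 libraries and 83.9 and 90.4 CPM in the 67NR libraries (log2 fold change 1.55, standard error 0.13, adjusted p 1.15e-05), the PDGF receptor gene Pdgfrb at 358 and 335 against 189 and 162 CPM and Pdgfra at 148 and 118 against 88.8 and 84.2 CPM. The receptor kinase Axl was at 1319.8 and 1246 against 854 and 824 CPM. Among other transition factors, Tcf4 was at 480.0 and 436 against 237 and 236 CPM and Prrx1 at 79 and 70.4 against 46 and 44.7 CPM. The calls of Snai2 (log2 fold change 0.50) and Twist1 (0.33) were both lost without 66cl4 replicate 2 or either 67NR library. Zeb1, Zeb2, Twist2 and Cdh2 did not pass the threshold. The count of higher members was 7 without 67NR replicate 2 for this list. Of 18 contractile and smooth muscle genes tested, 12 were higher and 2 lower (median 0.58). The tropomyosin Tpm1 of actin filaments was at 1270.4 and 1439 against 899 and 839.8 CPM, its relative Tpm2 at 138 and 153 against 62.7 and 65.4 CPM, calponin Cnn2 at 889.6 and 811 against 419 and 438 CPM and the serum response factor Srf at 186 and 216 against 101 and 106 CPM. Acta2, the actin of smooth muscle, was low in both lines (3.43 and 3.39 against 0.846 and 0.843 CPM). Of 27 targets and regulators of the YAP and TEAD factors tested, 15 were higher and 1 lower (median 0.35). The tissue factor gene F3 was at 189 and 228 CPM in the 66cl4 libraries and 58.1 and 60 CPM in the 67NR libraries (log2 fold change 1.82, standard error 0.11, adjusted p 2.07e-06), Ccn2 at 111 and 134 against 44.2 and 39.6 CPM and Ankrd1 at 1195 and 1361 against 551 and 539.6 CPM. Among their regulators were Tead1 and Wwtr1 (TAZ), which did not pass the threshold, with 212 against 207 CPM for Tead1 and 285 against 314 CPM for Wwtr1. For the YAP list, the count of higher members was 9 without 67NR replicate 2.

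Most epithelial junction genes were at or near 0 in both lines, and 14 of 29 listed had at most 3 counts in each of the 4 libraries. Of 25 junction genes tested, 4 were higher and 4 lower (median log2 fold change 0.00). Each is 16.0%, against 22.3% and 22.4% of all genes. Members such as Perp and Crb3, with 0 counts in all 4 libraries, were tested only because the filter took in the 4T1 and 4T1.2 libraries. Such members could not be called in either direction, so these shares and the median are partly set by the filter. Cldn1, a tight junction claudin, was at 65 and 60.1 CPM in the 66cl4 libraries and 13.8 and 13 CPM in the 67NR libraries (log2 fold change 2.23, standard error 0.11, adjusted p 1.48e-06), and the desmosomal plakophilin Pkp2 at 31.6 and 31.6 against 11.1 and 10.8 CPM. Ocln, which encodes occludin, went the other way at 0.442 and 0.29 against 4.59 and 3.45 CPM. The scaffold Tjp1 did not differ past the threshold (263 and 255 against 283 and 246 CPM). Of 8 keratins tested, Krt18 and Krt7 were higher, while Krt17, Krt19 and Krt20 had at most 3 counts in each of the 4 libraries. Krt18 and Krt8 pair in the filaments of simple epithelia, and Krt8 was at 602 and 607 against 464 and 528 CPM, with a log2 fold change of 0.29 that did not pass the threshold, while Krt18 changed by 6.82. Of the 75-base stretches of Krt8, 22% occur in transcripts of other genes.

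TGF-β and BMP ligands act through receptor kinases and SMAD proteins. Target genes of this signalling include the inhibitory SMADs, Smad6 and Smad7, and the Id genes, which block differentiation factors. Of 51 genes of the TGF-β, activin and BMP pathway tested, 24 were higher and 5 lower in 66cl4 (47.1% higher, against 22.3% of all genes, and a median log2 fold change of 0.40). Among the ligands, Bmp4 was at 577 and 570.4 CPM in the 66cl4 libraries and 216 and 206 CPM in the 67NR libraries (log2 fold change 1.44, standard error 0.15, adjusted p 5.42e-05) and Tgfb3 at 124 and 120.4 against 30.4 and 27.7 CPM, whereas Tgfb1 did not pass the threshold (31.9 and 37 against 39.3 and 41.9 CPM). Among the receptors, Bmpr1a was at 240.4 and 198 against 140.4 and 134 CPM and Bmpr2 at 30.9 and 22.3 against 14.4 and 13.7 CPM. Bmpr1b had 0 and 0 counts in 66cl4 and 95 and 106 in 67NR, so that it was at least 32.3-fold lower in 66cl4. Several targets of the pathway were higher. Smad6 was at 160.2 and 161 CPM in the 66cl4 libraries and 29.8 and 32.3 CPM in the 67NR libraries (log2 fold change 2.37, standard error 0.09, adjusted p 1.29e-07) and Smad7 at 136 and 161 against 36 and 37.1 CPM. Id1 was at 387 and 413 against 132 and 133 CPM, Id2 at 271 and 260.1 against 115 and 103 CPM and Id3 at 375 and 422 against 143 and 133 CPM, each higher in both 66cl4 libraries. Secreted regulators were divided. The follistatin-like gene Fstl1 was at 97.9 and 102 against 20.3 and 18.4 CPM and the latent TGF-β binding protein Ltbp3 at 395 and 385 against 169 and 183 CPM, while Fst and Grem1, antagonists of the ligands, were lower, with Fst at 43 and 53.7 against 110.5 and 112 CPM and Grem1 at 32.6 and 28 against 65.7 and 55.9 CPM. The call of Bmpr2 was lost without 66cl4 replicate 1. The count of lower members was 3 without 67NR replicate 1 for this list.

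In the Wnt pathway, 17 of 36 members tested were higher and 6 lower (median log2 fold change 0.58). Among the receptors, Fzd7 was at 70.6 and 68.9 against 31 and 28.7 CPM and Fzd5 at 33 and 35.4 against 15.2 and 12.9 CPM, and the R-spondin receptor Lgr4 at 25.2 and 25.4 against 7.64 and 8.92 CPM. The co-receptors Lrp5 and Lrp6 rose by 0.59 and 0.74 on the log2 scale. The ligand Wnt7b was lower, at 18.9 and 17.7 CPM in the 66cl4 libraries and 67.1 and 67.8 CPM in the 67NR libraries (log2 fold change -1.88, standard error 0.09, adjusted p 4.18e-07), as was Axin2, a feedback target of β-catenin, at 2.9 and 3.82 against 8.63 and 8.53 CPM. The secreted inhibitor Wif1 had 0 and 0 counts in 66cl4 and 112 and 74 in 67NR, at least 31.9-fold lower. Of 22 Notch pathway genes tested, 11 were higher and 1 lower (median 0.30). Hes1, a repressor induced by Notch, was at 75.8 and 75.7 CPM in the 66cl4 libraries and 18.6 and 18.8 CPM in the 67NR libraries (log2 fold change 2.02, standard error 0.08, adjusted p 2.03e-07) and Notch1 at 35.7 and 29.2 against 16.3 and 18.2 CPM, while Notch2 did not pass the threshold (129 and 112 against 124 and 123 CPM). Notch3 was low in both lines (2.39 and 1.52 against 0.0273 and 0.146 CPM). For the Notch list, the count of higher members was 5 without 66cl4 replicate 2 and 6 without either 67NR library. Of 29 receptor tyrosine kinases tested, 15 were higher and 8 lower (median 0.42). Igf1r was at 239.6 and 216 against 114 and 128 CPM, Fgfr1 at 67.6 and 72 against 40.8 and 41.1 CPM, Met at 116 and 98.3 against 64.9 and 64.5 CPM and the collagen receptor Ddr1 at 82.8 and 83.2 against 41.1 and 42.9 CPM. Fgfr3 was at 0.309 and 0.201 against 2.43 and 3.27 CPM, and Alk had 1 and 1 counts in 66cl4 and 31 and 66 in 67NR. For the kinases, the count of lower members was 4 without 67NR replicate 2. Axon guidance genes, which also steer vessels and tumour cells, had 16 of 45 tested members higher and 10 lower (median 0.32). The secreted semaphorin Sema3c was at 276 and 188 CPM in the 66cl4 libraries and 9.72 and 10.7 CPM in the 67NR libraries (log2 fold change 4.51, standard error 0.18, adjusted p 1.64e-07), Sema3e at 486 and 439 against 152 and 134 CPM and the netrin receptor Unc5b at 565 and 608 against 237 and 229 CPM. Transmembrane semaphorins differed in direction, with Sema5a at 59.5 and 45.8 against 144 and 138 CPM and Sema6b at 8.22 and 9.07 against 28.1 and 32.1 CPM. Sema6d, in contrast, had 28 and 40 counts in 66cl4 and 0 and 0 in 67NR, at least 11.6-fold higher.

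Tumour cells attract vessels and blood cells by secreted factors. Of 34 angiogenic ligands and inhibitors tested, 17 were higher and 6 lower in 66cl4 (median log2 fold change 0.34). Vegfc, a growth factor of lymphatic vessels, was at 52.1 and 52.2 CPM in the 66cl4 libraries and 8.41 and 7.98 CPM in the 67NR libraries (log2 fold change 2.67, standard error 0.11, adjusted p 2.18e-07), whereas Vegfa, the main growth factor of blood vessels, was slightly lower at 67.7 and 70.5 against 86.2 and 93.5 CPM, a call that was lost without 66cl4 replicate 1 or 67NR replicate 2. Pdgfb, which recruits pericytes, was at 58 and 61.2 against 8.03 and 8.35 CPM (log2 fold change 2.86, standard error 0.09, adjusted p 5.77e-08), and Pdgfc was among the genes read in 66cl4 alone of these lines. The vasodilator peptide Adm was at 87.6 and 96 against 27.8 and 26.8 CPM, and the inhibitor Serpinf1 (PEDF) at 33.6 and 30.9 against 10.1 and 8.12 CPM. Of 15 chemokines tested, 8 were higher and 3 lower (median 0.54). The monocyte attractant Ccl2 was at 13.6 and 18.3 CPM in the 66cl4 libraries and 0.218 and 0.762 CPM in the 67NR libraries (log2 fold change 4.86, standard error 0.30, adjusted p 2.39e-06), Cx3cl1 at 73.6 and 81.4 against 34 and 33 CPM, the interferon-inducible Cxcl10 at 14.9 and 16.3 against 4.18 and 4.59 CPM and Ccl5 at 5.35 and 5.16 against 2.02 and 1.41 CPM. The neutrophil attractants differed in direction. Cxcl5 was at 65.8 and 81.3 against 119 and 117 CPM and Cxcl3 at 4.29 and 4.71 against 13.5 and 11 CPM, whereas Cxcl1 was higher, at 51.5 and 64.8 against 45.4 and 34.9 CPM, a call that was lost without 66cl4 replicate 2 or 67NR replicate 2. Cxcl12 did not pass the threshold (1301 and 1598 against 1317 and 1242 CPM). Of 27 cytokines and haematopoietic growth factors tested, 11 were higher and 4 lower (median 0.39). Lif, a cytokine of the interleukin-6 family, was at 132 and 155 against 66.7 and 62 CPM (log2 fold change 1.16, standard error 0.15, adjusted p 0.000186), Il7 at 39.2 and 34.5 against 11.6 and 14.1 CPM and Il18 at 14.1 and 11.9 against 3.77 and 3.66 CPM. Csf1, the growth factor of macrophages, did not pass the threshold (846 and 963 against 995 and 890.0 CPM), and Csf3, which encodes G-CSF, was low in both lines (0.995 and 1 against 0.655 and 0.665 CPM). Mif was at 152 and 157 against 263 and 283 CPM, with 28.2% of its 75-base stretches shared with other genes and its call lost without 67NR replicate 2 or either 66cl4 library. For the cytokines, the count of higher members was 6 without 67NR replicate 1 and 7 without 67NR replicate 2, and the count of lower members was 1 without either 66cl4 library and 2 without either 67NR library.

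Genes of embryonic patterning and of other lineages were also read. Of 11 myogenic and muscle-precursor genes tested, 7 were higher and 1 lower (median log2 fold change 0.73). Of the 19 listed, 6 had at most 3 counts in each of the 66cl4 and 67NR libraries, among them the muscle transcription factors Myod1, Myf5, Myog and Pax7. Eya1, a factor of muscle precursors, was at 169 and 181 against 71.9 and 69.2 CPM and the homeobox gene Lbx1 at 226 and 229.6 against 130.2 and 138 CPM. Of 24 Hox genes tested, 9 were higher and 1 lower (median 0.22). Hoxb9 was at 50.4 and 56.7 against 14.8 and 13.7 CPM and Hoxb8 at 50.2 and 57.1 against 23.5 and 22.2 CPM, and Hoxc9 had 141 and 130 counts in 66cl4 and 0 and 1 in 67NR, a ratio of 296 (95% interval 52.7 to 11732). Hox genes of a cluster overlap, which the counting may not separate. Of 18 osteoblast and chondrocyte genes, 5 were higher and 3 lower (27.8% and 16.7%, against 22.3% and 22.4% of all genes, median -0.09). The bone factor Runx2 was at 62.4 and 77.5 against 40.3 and 35.3 CPM. Sox9, at 25.9 and 29.1 against 26.5 and 25.8 CPM, did not pass the threshold. For the bone genes, the count of lower members was 0 without 67NR replicate 2 and 1 without 66cl4 replicate 1.

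Imprinted genes, of which 1 parental copy is silenced, were higher or did not pass the threshold. Of 16 tested, 8 were higher and 0 lower (median 0.32). Lower members numbered 0 at an unadjusted p under 0.05 in edgeR, 0 past the adjusted threshold in DESeq2 and 0 in limma-voom. Igf2, a fetal growth factor, was at 42.7 and 41.1 CPM in the 66cl4 libraries and 3.25 and 3.16 CPM in the 67NR libraries (log2 fold change 3.71, standard error 0.16, adjusted p 2.76e-07), and Igf2r, the receptor that clears it, at 91.1 and 73.2 against 12.3 and 11.5 CPM (log2 fold change 2.79, standard error 0.20, adjusted p 4.93e-06). The tetraspanin Cd81, on chromosome 7, was at 29.2 and 30.7 against 1.88 and 1.95 CPM. Both 66cl4 libraries were above both 67NR libraries for each, although 60.3% of the 75-base stretches of Igf2 occur in transcripts annotated to other genes. H19, next to Igf2, had 0 and 0 counts in 66cl4 and 1 and 1 in 67NR. Of 9 germline and cancer-testis genes tested, 1 was higher (11.1%, against 22.3% of all genes) and 2 were lower (22.2%, against 22.4%). These were Rhox5, given above, and Dazl, an RNA-binding protein of germ cells, with 0 and 0 counts in 66cl4 and 26 and 41 in 67NR (at least 10.3-fold lower).

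Glycolysis turns glucose into pyruvate and lactate. Of 27 genes of glycolysis and lactate transport tested, 3 were higher and 9 lower (median log2 fold change -0.26), and 1 of the lower ones lies on chromosome 3 or 8. Ldha, which makes lactate, was at 1543 and 1460.1 against 2377 and 2499 CPM. Its call was lost when any 1 of the 66cl4 or 67NR libraries was left out. The lactate transporter Slc16a1 was at 129 and 130.1 against 194 and 191 CPM, the pyruvate dehydrogenase kinase Pdk1 at 90.6 and 103 against 149.6 and 148 CPM and the glucose transporter Slc2a1 at 104 and 110.2 against 144 and 144 CPM. In contrast, Pfkm, the muscle isoform of phosphofructokinase, was at 49.8 and 53.6 CPM in the 66cl4 libraries and 2.95 and 3.36 CPM in the 67NR libraries (log2 fold change 4.02, standard error 0.12, adjusted p 3.15e-08), while its isoforms Pfkl and Pfkp did not pass the threshold (329 against 395 CPM and 247 against 228 CPM). Of 51 nuclear subunits of the respiratory chain and ATP synthase tested, 0 were higher and 15 lower (median -0.16). The lower share was 29.4%, against 22.4% of all genes, and outside chromosomes 3 and 8, 12 of 48 were lower. Higher members numbered 0 at an unadjusted p under 0.05 in edgeR, 0 past the adjusted threshold in DESeq2 and 0 in limma-voom. The complex I subunit Ndufb5, on chromosome 3, was at 47.9 and 40.1 against 95.7 and 114 CPM and Cyc1 at 101 and 98.5 against 156 and 170.3 CPM, whereas Atp5b did not pass the threshold (1743 and 1709 against 1709.5 and 1760.4 CPM). For the respiratory chain, the count of lower members was 8 without 67NR replicate 2.

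Of 35 genes of cholesterol and fatty acid synthesis tested, 5 were higher and 9 lower (median -0.11). These are 14.3% and 25.7%, against 22.3% and 22.4% of all genes, and 4 of the lower ones lie on chromosome 3 or 8. Outside these chromosomes 5 were higher and 5 lower (median -0.01). The mevalonate pathway enzyme Mvd, on chromosome 8, was at 25.6 and 27.5 against 73.4 and 73.6 CPM. Elovl6, which lengthens fatty acids and lies on chromosome 3, was at 162 and 158 against 302 and 274 CPM. Dhcr7, of the last step of cholesterol synthesis, was at 291 and 295 against 189 and 180.0 CPM. For these genes, the count of higher members was 3 without 66cl4 replicate 1 or either 67NR library. NRF2 is a factor that induces enzymes against oxidants and foreign compounds. Of 34 glutathione and NRF2 target genes tested, 3 were higher and 12 lower (median -0.23), and 6 of the lower members lie on chromosome 3 or 8. The quinone reductase Nqo1 was at 18.2 and 19.3 CPM in the 66cl4 libraries and 59.8 and 60.6 CPM in the 67NR libraries (log2 fold change -1.69, standard error 0.09, adjusted p 1.29e-06), the haem oxygenase Hmox1 at 32.4 and 34.6 against 90.7 and 87.4 CPM and the glutathione transferase Gstm2 at 39.6 and 41.2 against 129.7 and 121 CPM. All of these lie on chromosome 3 or 8, and outside these chromosomes 6 of 25 members were lower, among them Aldh3a1 (309 and 302 against 489 and 494 CPM). Of 28 genes of the unfolded protein response and ATF4 targets, 6 were higher and 12 lower (21.4% and 42.9%, against 22.3% and 22.4% of all genes, median 0.01). The chaperones Hspa5 and Hsp90b1 did not pass the threshold (829 against 792 CPM and 1119.7 against 1067 CPM), Atf4 itself was at 176 and 225 against 299 and 292 CPM, and Vldlr, a lipoprotein receptor, was at 44.5 and 42 against 0.983 and 0.665 CPM (log2 fold change 5.76, standard error 0.20, adjusted p 2.59e-07). Of 28 ion channels and solute carriers, 4 were higher and 11 lower (median -0.23). The bicarbonate transporter Slc4a7 was at 149.7 and 123 against 45.7 and 44.1 CPM, and the amino acid transporter Slc38a1 at 23.1 and 21.6 against 60.6 and 54.5 CPM. For the carriers, the count of higher members was 2 without 67NR replicate 2.

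Chromosomes differed in their share of lower genes. On chromosome 3, 413 of 668 genes tested were lower in 66cl4 (61.8%) and 58 were higher (8.68%). On chromosome 8, 324 of 750 were lower (43.2%) and 113 higher (15.1%). On the other 17 autosomes and the X chromosome, between 16.7% and 25.9% were lower and between 18.8% and 26.4% higher, with median log2 fold changes from -0.05 to 0.06. Chromosomes 3 and 8 held 10.2% of the genes tested and 23.7% of the lower genes. Of the genes on chromosome 3 that were lower, 143 were so by more than 2-fold, which leaves most with a change of less than 2-fold. Several genes described above as lower lie on these chromosomes, among them S100a4, Selenof and Bmpr1b on chromosome 3. Nlrc5, Rrad, Calr and Mmp2 lie on chromosome 8. Some genes of these chromosomes stood against the shift, such as F3 and Ccn1 on chromosome 3 and Vegfc and Bst2 on chromosome 8, all higher in 66cl4. The number of chromosome copies in these cells was not tested.

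**Figure D5:**
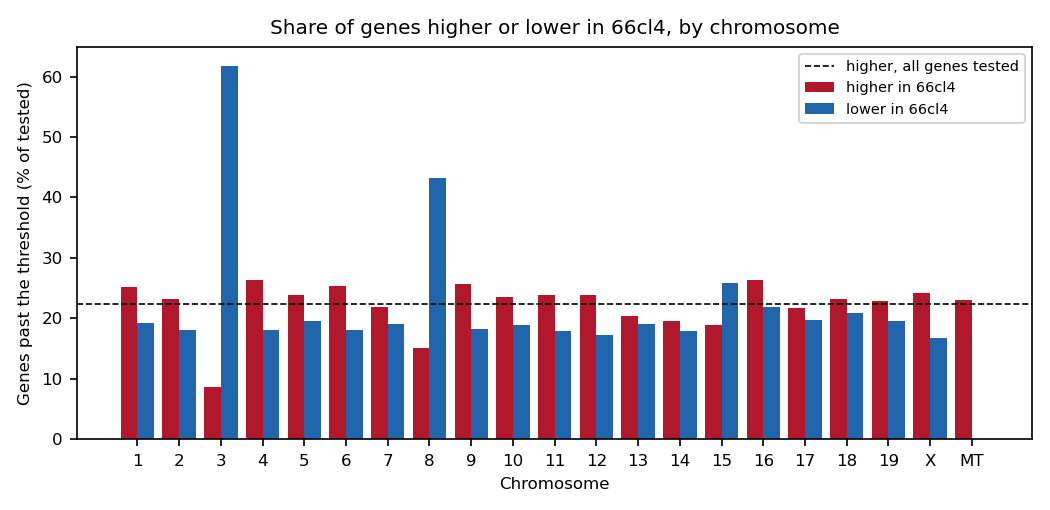
Percentage of the genes tested on each chromosome that were higher (red) or lower (blue) in 66cl4 at an adjusted p under 0.05, with the share of higher genes among all genes tested as a dashed line. Chromosome 3 has 61.8% lower and 8.68% higher genes, and chromosome 8 has 43.2% and 15.1%.

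Markers of other cell types that a tumour culture could hold were summed in each library. Leucocyte markers added up to 19.6 to 24.4 CPM in 66cl4 and 26.4 to 26.9 CPM in 67NR, nearly all of it from Lyz2 (19.7 against 22.6 CPM). Of the 16 listed, 10 had at most 3 counts in each of the 4 libraries, and of 5 tested 3 were lower. Endothelial markers added up to 0.692 to 0.752 CPM in 66cl4 and 0.464 to 0.843 CPM in 67NR, with 4 tested and 0 past the threshold in edgeR (1 at an unadjusted p under 0.05, 1 in DESeq2 and 0 in limma-voom), and red blood cell markers to 0.514 to 0.685 CPM in 66cl4 and 1.36 to 1.64 CPM in 67NR, with both tested members lower. Adipocyte markers added up to 20.5 to 25.3 CPM in 66cl4 and 11.7 to 12.3 CPM in 67NR, most of it from the lipase Lipe (22.6 against 11.6 CPM), with 2 of 3 tested higher and 1 lower. Fibroblast markers stood at 459 to 514 CPM in 66cl4 and 254 to 285 CPM in 67NR, most of it from Pdgfra and Pdgfrb, which the mesenchymal list also holds, with 2 of 6 higher and 1 lower, while Dcn was at 0.466 against 0.53 CPM and Col3a1 at 0.7 against 1.38 CPM. The part of other cells in the differences was not tested. For the leucocyte markers, the count of lower members was 0 without 66cl4 replicate 2 and 1 without either 67NR library.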

How the data were processed

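RNA-seq of cultured 66cl4 and 67NR cells (2 libraries each) was analysed with the 4T1 and 4T1.2 libraries (2 each) in the fit. The authors deposited raw counts per Entrez gene. According to the study's methods and the submitters' processing notes, reads were aligned to mm10 with Rsubread and counted with featureCounts. The strand setting is not given in the sources used here, so reads of a gene and of an antisense or overlapping partner cannot be told apart. The table holds 27179 genes and 0 columns of samples that could not be mapped. Library totals ran from 37159840 to 66269681 counts. Symbols came from the RefSeq gene table (25275 genes matched, 93.0%), and coordinates are those of GRCm38.

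filterByExpr, run on all 8 libraries, left 15269 genes. Removal of ribosomal and predicted genes and of identifiers without an entry, which took 5.38% to 7.98% of the counts, left 13913. edgeR 4.0.16 (R 4.3.3) was used with TMM scaling, a mean for each line and the legacy quasi-likelihood F-test (4 residual degrees of freedom, biological coefficient of variation 9.74%), with p-values adjusted after Benjamini and Hochberg over the 13913 genes and a threshold of 0.05. CPM are counts per 1000000 of the TMM-scaled library size. Standard errors were derived from the F statistic, and fitted fold changes used a prior count of 0.125. Replicates of a line differed by more than sampling noise (chi-square per degree of freedom 58.1 in 66cl4, 10.3 in 67NR, 75.4 in 4T1 and 69 in 4T1.2). Nothing says how far apart the replicate cultures were grown, so p-values measure only the spread between these samples. Intervals are exact binomial (95%), and a line at 0 was set to a floor of 3 counts per library.

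Genes were named by 4 rules: the 12 largest fold changes in each direction among called genes with non-overlapping libraries and at least 10 CPM in the higher line, the 8 largest differences in mean CPM in each direction, members of 39 lists (those with the largest changes and the most abundant), and genes read in 1 line alone. Some genes that these rules name are not reported here. The members and lists were chosen with earlier results of these data known, and no test over a list was made. Shared sequence was measured as the share of a gene's 75-base stretches found in GENCODE transcripts of other genes. Alternatives were DESeq2's size factors, DESeq2 1.42.0, limma-voom 3.58.1, other filters, the newer and the robust fit, a minimum log2 fold change of 1 in the test, the 4 libraries alone, a replicate block, thinned counts, and each library left out.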

Additional observations from a re-analysis of the deposited data

How the results depend on the processing

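When the test was set against a log2 change of 1 in place of 0, 1056 genes passed the threshold, 594 higher and 462 lower, in place of 6215, 3100 and 3115, since only changes shown to exceed 2-fold are called. With 1 library left out in turn, the total ran from 4140 (without 67NR replicate 2) to 6936 genes, the higher genes from 2044 to 3492 and the lower genes from 2096 to 3578. All other alternatives gave totals within 1.5 times of the reported one: 6213 with DESeq2's size factors, 6173 with no filter on low counts, 5533 with at least 10 counts in each of the 4 libraries, 6375 with no removal by annotation, 6251 with the newer quasi-likelihood fit, 6199 with robust estimation, 6127 with DESeq2, 6178 with limma-voom, 6886 with the 4 libraries alone and 6070 with every library thinned to 37159840 counts. Of the calls reported, 5910 were also made by DESeq2 and 6034 by limma-voom. The cause of the differences between these totals was not tested. The replicate block, which pairs libraries by their number, gave 6416 genes, 3222 higher and 3194 lower. The deviations of libraries with the same number correlated at -0.127 between 66cl4 and 67NR and at 0.639 between 4T1 and 4T1.2. Between the other pairs of lines they ran from -0.313 to 0.292. The numbers were not taken to pair the samples, and a replicate effect shared by 4T1 and 4T1.2 was not tested. Of the genes named in the text or by the rules, 285 entered the test and 238 were called. None of these reversed, and 222 kept their call in every alternative with a test against 0 that tested them, while 38 genes were not tested with at least 10 counts in each of the 4 libraries. Of 78 list counts, 42 stayed within 1.5 times in all of those alternatives, and those of 3 or more that moved with 1 library left out are given beside the list. With 2 libraries per line and a biological coefficient of variation of 9.74%, small changes may not have been detectable.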

Other observations

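The groups of genes in these paragraphs were chosen after their values had been seen, and are given as values with no test over a group. Background shares are those of all genes tested, 22.3% higher and 22.4% lower. Interferon-inducible GTPases attack vacuoles that hold pathogens inside cells. All 17 tested, of which Gbp2 and Gbp3 are also in the list of interferon-stimulated genes, were higher in 66cl4 (median log2 fold change 2.80), and their summed level was 759 to 1001 CPM in 66cl4 and 216 to 224 CPM in 67NR. Lower members numbered 0 at an unadjusted p under 0.05 in edgeR, 0 past the adjusted threshold in DESeq2 and 0 in limma-voom. Irgm1 had the highest CPM among them, with 316 and 278 CPM in the 66cl4 libraries and 97.2 and 90.7 CPM in the 67NR libraries (log2 fold change 1.66, standard error 0.13, adjusted p 9e-06). Iigp1 was at 54.2 and 28.8 against 2.02 and 2.06 CPM and Gbp4 at 125 and 115 against 32.6 and 30.9 CPM, with both 66cl4 libraries above both 67NR libraries. Gvin1 was at 52.5 and 12.6 against 1.26 and 1.39 CPM, with 66cl4 replicate 1 far above replicate 2, and 98.3% of its 75-base stretches occur in other genes. Tgtp1, Tgtp2, Gbp6 and Gbp10 share 67.3% to 81.4% of theirs, so that their separate counts are uncertain. The genes of interferons themselves were near 0. Of 14 listed, 11 had no count in any of the 4 libraries, and Ifnb1, which encodes interferon-β, had 8 and 8 counts in 66cl4 and 6 and 6 in 67NR. Among 17 receptors, sensors and adaptors, 9 were higher and 3 lower. The receptor subunit gene Ifnar1 was at 114 and 116 against 81.1 and 78.1 CPM, and the DNA sensor Cgas (44.9 against 39.7 CPM) and its adaptor Sting1 (65.4 against 62.3 CPM) did not pass the threshold.

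Immediate-early genes answer growth factors and stress within minutes. Of 15 tested, 12 were higher and 2 lower in 66cl4 (median log2 fold change 0.86). Beside Egr1, Egr3 was at 24.3 and 24.3 against 1.26 and 1.91 CPM (log2 fold change 3.90) and Fos at 73.7 and 62.5 against 19.9 and 24.1 CPM (1.63). Junb, the AP-1 partner of Fos, was at 449 and 467 against 208 and 209.9 CPM and the phosphatase gene Dusp1 at 124 and 132 against 47.7 and 48.6 CPM. Both 66cl4 libraries were above both 67NR libraries for these genes. Myc (68 and 88.8 against 112 and 110.4 CPM) and Fosl1 (36.8 and 51.7 against 61.7 and 63.9 CPM) were the lower ones, and both calls were lost without 66cl4 replicate 1 or either 67NR library. Hedgehog signalling releases Smo from its receptor Ptch1 and activates the Gli factors. Of 12 genes tested, 5 were higher and 3 lower, with 3 higher without any of the 66cl4 or 67NR libraries in turn. Gli2 had 2 and 3 counts in 66cl4 and 177 and 296 in 67NR, a ratio of 86.6 (95% interval 36.9 to 268), and the target Ptch1 was at 27.9 and 22.2 against 52.4 and 43.8 CPM (log2 fold change -0.94, standard error 0.18, adjusted p 0.00206). Smo, in contrast, was at 329 and 329 against 189 and 181 CPM and the co-receptor Cdon at 143 and 133 against 52.7 and 48.6 CPM, both higher in both 66cl4 libraries.

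The β-protocadherins are neighbouring cell surface genes of 1 cluster, used in cell recognition. Of 21 tested, 15 were lower in 66cl4 and 0 higher (median log2 fold change -1.99). Higher members numbered 0 at an unadjusted p under 0.05 in edgeR, 0 past the adjusted threshold in DESeq2 and 0 in limma-voom. Pcdhb5 was at 1.17 and 1.52 against 11.2 and 11.5 CPM and Pcdhb7 at 0.906 and 0.536 against 8.08 and 7.47 CPM, while Pcdhb22 did not pass the threshold (8.47 and 6.56 against 9.06 and 8.77 CPM). Inflammasomes sense danger and activate Casp1. Of 9 genes tested, 1 was higher and 4 were lower. Beside Aim2, the sensor Nlrp1b was at 0.332 and 0.357 against 5.46 and 4.99 CPM, and Casp1 itself did not pass the threshold (39.8 and 32.5 against 45 and 44.9 CPM). Of 10 complement components and regulators tested, 4 were higher and 1 was lower. The central component C3 was at 8.33 and 7.12 CPM in the 66cl4 libraries and 41.1 and 40.6 CPM in the 67NR libraries (log2 fold change -2.40, standard error 0.15, adjusted p 1.99e-06), and the inhibitor Serping1 at 3.14 and 3.04 against 0.0273 and 0 CPM.

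Transcripts of the 13 protein genes of mitochondrial DNA took up 24839 to 48751 CPM in the 66cl4 libraries and 27096 to 30043 CPM in the 67NR libraries, with 66cl4 replicate 1 the highest. COX1 was at 15081 and 7179 CPM in the 66cl4 libraries and 10072 and 11249 CPM in the 67NR libraries, so that the lines overlapped. Of the 13 genes, 3 passed the threshold as higher in 66cl4 and 0 as lower, and the higher ones were 1 without 66cl4 replicate 1 or either 67NR library and 5 without 66cl4 replicate 2. Lower members numbered 0 at an unadjusted p under 0.05 in edgeR, 0 past the adjusted threshold in DESeq2 and 0 in limma-voom.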
